A study of Homo sapiens with 24 samples.

Results

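The 10 genes described here belong to the circadian clock, the cell-autonomous feedback loop that times gene expression over the day. They are PER1, PER2, PER3, CRY1, CRY2, NR1D1, NR1D2, BHLHE40, DBP and BMAL1, chosen by name from the 60675 genes of the count table, and all 10 passed the filter on low counts in every comparison. RNA was sequenced from SW1783, a human astrocytoma cell line, after 24 h with an extract of Schisandrae Fructus, the dried fruit of a woody vine. Batch A held the hot water extract (WESF) at 20, 100 and 500 µg/mL and its vehicle (vehicle A). Batch B held the ethanol extract (EESF) at 12.4, 62 and 310 µg/mL and its vehicle (vehicle B). The doses are called low, medium and high, the vehicle was phosphate-buffered saline with 0.1% DMSO, and each of the 8 groups had 3 libraries, 24 in all. No group carried a genetic change, and all cells grew in the same serum-containing medium. By the study's methods the high dose of WESF was not toxic in a screen, whereas that of EESF lowered viability mildly. The labels do not say whether the libraries of a group came from separate cultures, so the p-values measure the spread between these libraries, which may be technical. All libraries came from a single time after treatment. A change in level and a shift in the phase of a cycling transcript therefore cannot be told apart, and in bulk RNA neither can fewer cells of a type and less RNA per cell. Library depth, as the total of the deposited counts, was between 18727797 and 32567395.

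In the clock, a dimer of CLOCK (or its relative NPAS2) and BMAL1 binds E-boxes and activates the PER and CRY genes, whose proteins return to the nucleus and repress the dimer. A second loop runs through NR1D1 and NR1D2 (REV-ERB alpha and beta), nuclear receptors that repress BMAL1 through ROR elements, against activators such as RORA and RORB. DBP, with its relatives TEF and HLF, activates genes through D-boxes, which NFIL3 represses. BHLHE40 competes with the dimer at E-boxes. Astrocytes are known to run such a clock, also in culture.

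Promoter windows of RefSeq (GRCh38.p14) were at hand for all 10 genes, in 14 windows of 300 bases, from 250 before the start site to 50 from it. The D-box was searched as TTATGTAA or TTACGTAA on both strands and was found in 3 of the 14 windows, 1 each of PER2, PER3 and NR1D2. They are shown because these are 3 of the 4 clock genes that fell at both high doses. PER3 and NR1D2 each had another window, at a different start site, with 0 matches to any motif searched. Among all 35116 windows, 1.01% held it. Each sequence runs 5′ to 3′ on the strand of its gene, from 250 bases before the start site to base 4, with the start site as base 0. Capitals mark the motifs found.
PER2 (chr2:238288606-238288860, minus strand): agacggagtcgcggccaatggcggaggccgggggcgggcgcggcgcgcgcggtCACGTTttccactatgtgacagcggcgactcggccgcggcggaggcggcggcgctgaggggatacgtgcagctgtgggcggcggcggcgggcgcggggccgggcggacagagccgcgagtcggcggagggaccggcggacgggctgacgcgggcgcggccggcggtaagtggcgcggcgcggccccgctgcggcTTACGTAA
PER3 (chr1:7784041-7784295, plus strand): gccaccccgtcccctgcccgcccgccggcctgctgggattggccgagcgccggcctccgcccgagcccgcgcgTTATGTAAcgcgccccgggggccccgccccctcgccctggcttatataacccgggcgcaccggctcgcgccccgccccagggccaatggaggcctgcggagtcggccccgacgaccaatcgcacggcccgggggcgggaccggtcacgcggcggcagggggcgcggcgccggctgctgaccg
NR1D2 (chr3:23945871-23946125, plus strand): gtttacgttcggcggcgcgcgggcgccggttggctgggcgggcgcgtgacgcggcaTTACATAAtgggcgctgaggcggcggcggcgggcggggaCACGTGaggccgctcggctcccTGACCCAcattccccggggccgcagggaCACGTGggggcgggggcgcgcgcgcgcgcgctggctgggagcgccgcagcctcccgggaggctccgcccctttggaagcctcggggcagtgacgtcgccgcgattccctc

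In PER2 the D-box lay across the start site, at bases -3 to 4, and the E-prime box (CACGTT) at -197 to -192. In PER3 the D-box lay at -177 to -170. The NR1D2 window shown held a D-box on the opposite strand at -194 to -187, E-boxes (CACGTG) at -155 and -105, and a ROR element (TNGGTCA, opposite strand) at -133. Over all 10 genes the E-box was found in BHLHE40, NR1D2 and PER1 (7.26% of all windows), the E-prime box in PER2, CRY1, CRY2 and NR1D1 (5.34%), and the ROR element in NR1D2, BMAL1 and CRY2 (9.45%). BMAL1 held 2 ROR elements. The cAMP response element (TGACGTCA, 1.85% of all windows) was found in none of the 14. A match is a run of letters in the window and not a site shown to be bound.

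**Figure D1:**
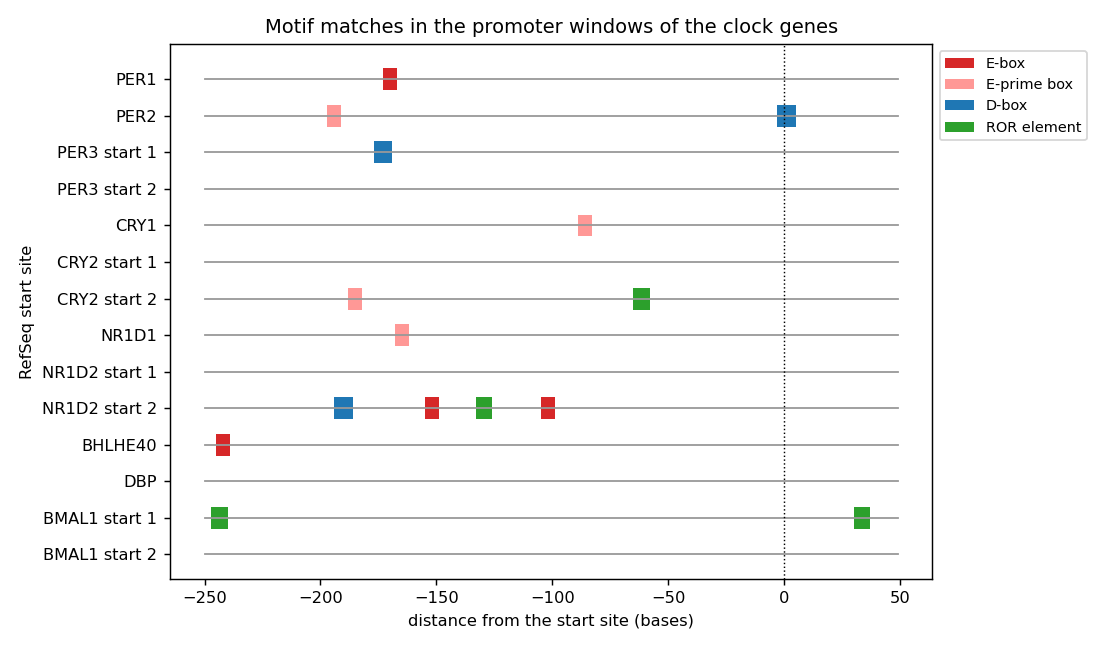
Position of each motif match (coloured blocks) in the 14 RefSeq promoter windows of the clock genes, in bases from the start site (dotted line). D-boxes are seen in PER2, PER3 and NR1D2, and the windows without blocks held none of the motifs searched.

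The labelled cell type was checked first. VIM, CD44 and GJA1, which glial tumour lines share with other adherent cells, were abundant, at medians of 4872, 2776 and 197.9 CPM (counts scaled to one library size by the TMM method) over the 24 libraries. Of the other markers in the list of 12 for astrocytes or glioma, SOX9 (median 76.3 CPM), SLC1A3 (27.1) and NES (6.20) were detected as well. The remaining 6, GFAP, AQP4, S100B, ALDH1L1, FABP7 and SLC1A2, had medians of at most 0.21 CPM, GFAP being the intermediate filament by which astrocytes are usually recognised. Among markers of other cell types, the defining MOG, SOX10 and C1QA were listed at 0 in all libraries, whereas KRT18 (median 118.3 CPM), KDR (35.6), SNAP25 (27.8) and PTPRC (8.75) were detected.

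In vehicle A the clock genes spanned a wide range of levels per kilobase of exon. BHLHE40 had the highest (68.2 ± 1.2 CPM per kb, SD, n = 3), followed by NR1D1 (35.6 ± 1.65) and NR1D2 (17.8 ± 1.23). PER3 (7.76 ± 0.457), PER1 (6.14 ± 0.11) and CRY1 (6.00 ± 0.163) formed a middle group, and PER2 (2.26 ± 0.17) and CRY2 (2.17 ± 0.0502) came below it. DBP (0.913 ± 0.0379) and BMAL1 (0.907 ± 0.0851) were lowest. The neighbours PER1 and CRY1, PER2 and CRY2, and DBP and BMAL1 did not differ beyond their spread. BMAL1 and DBP had 101 to 176 and 48 to 165 counts per library, so their values carry the largest counting error of the 10.

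At the high doses the PER genes with the exception of PER1 fell, CRY1 and BHLHE40 rose, and NR1D2 and DBP fell, with both extracts. With high-dose WESF 7 of the 10 genes passed the test (adjusted p under 0.05), 3 higher and 4 lower than vehicle A, beside 68.9% of the 13129 genes tested (34.3% higher and 34.6% lower). Of these, 4 were DEGs, that is also changed beyond 1.5-fold (24.1% of all genes). CRY1 was higher (11.1% of all genes), and PER2, PER3 and DBP were lower (13.0%). With high-dose EESF 7 of the 10 also passed, 2 higher and 5 lower than vehicle B, beside 58.0% of 13092 genes (29.3% higher and 28.7% lower). Of these, 2 were DEGs (17.4% of all genes), PER2 and PER3, both lower (9.17%). The share of clock genes called was thus near that of all genes at both high doses. The median log2 fold change of the 10 was -0.005 with WESF and -0.199 with EESF, beside 0.001 and 0.007 over all genes.

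Cell type markers moved at the same doses, those of the line itself included. The summed level of the 12 astrocyte or glioma markers, of which VIM was the most abundant, was 7899, 8003 and 8047 CPM in vehicle A and 6916, 6657 and 6722 with high-dose WESF, and 8039, 8186 and 8224 in vehicle B and 7449, 7681 and 7648 with high-dose EESF. Of the 6 tested, 5 fell and 0 rose with each extract. Of all genes 34.6% fell and 34.3% rose with high-dose WESF, and 28.7% fell and 29.3% rose with high-dose EESF. These shares stand beside every marker count at the high doses. The lower sums came mainly from CD44, at 2836 CPM on average in vehicle A and 1722 with WESF and at 2896 in vehicle B and 2077 with EESF. VIM had means of 4821 CPM in vehicle A and 4797 with WESF, and of 4922 in vehicle B and 5279 with EESF. The summed level of the 6 neuronal markers was 60.9, 63.5 and 64.2 CPM in vehicle A and 25.8, 27.0 and 25.3 with high-dose WESF, and 65.4, 64.9 and 68.2 in vehicle B and 31.2, 26.6 and 27.7 with high-dose EESF. SNAP25 was the most abundant of them, RBFOX3 and STMN2 were near 0, and 4 of the 5 tested fell and 1 rose with WESF, while all 4 tested fell with EESF. That of the 6 microglial markers went from 13.3, 14.3 and 13.9 CPM to 3.47, 3.60 and 3.81 with WESF and from 12.7, 13.9 and 13.7 to 3.71, 4.25 and 3.46 with EESF. PTPRC was the most abundant of these, C1QA was listed at 0, and the medians of AIF1, P2RY12 and CX3CR1 were at most 0.04 CPM. Both of the microglial markers tested fell with each extract. The sum of the 6 epithelial markers went from 150.4, 135.4 and 133.6 CPM to 62.4, 66.9 and 63.7 with WESF and was 136.2, 133.0 and 126.0 against 80.8, 101.0 and 97.2 with EESF. KRT18 was the most abundant of these and EPCAM and CDH1 were near 0, and of the 2 tested 1 rose and 1 fell with each extract. The sum of the 6 oligodendrocyte markers, nearly all of it MBP, was higher at the high doses, at 14.2, 13.0 and 11.4 CPM against 6.75, 7.67 and 6.74 with WESF and at 9.65, 10.2 and 9.67 against 6.55, 7.32 and 6.92 with EESF, and the 1 tested rose with each. That of the 6 endothelial markers, most of it KDR, was 33.5, 37.9 and 39.4 CPM in vehicle A and 38.3, 41.0 and 40.1 with WESF, and 33.9, 36.9 and 37.4 in vehicle B and 45.8, 43.0 and 41.4 with EESF. CDH5 was near 0, and of the 3 tested 1 fell with WESF and 1 rose with EESF. At the medium dose of WESF 2 of 6 astrocyte or glioma, 2 of 4 neuronal and 1 of 3 endothelial markers tested fell (4.10% of all genes called). At that of EESF 2 of 6 astrocyte or glioma, 3 of 4 neuronal and 1 of 2 microglial markers tested fell (15.4%). None of the markers rose at the medium doses, and none passed at the low doses. The part of these markers in the changes of the clock genes was not tested.

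**Figure D2:**
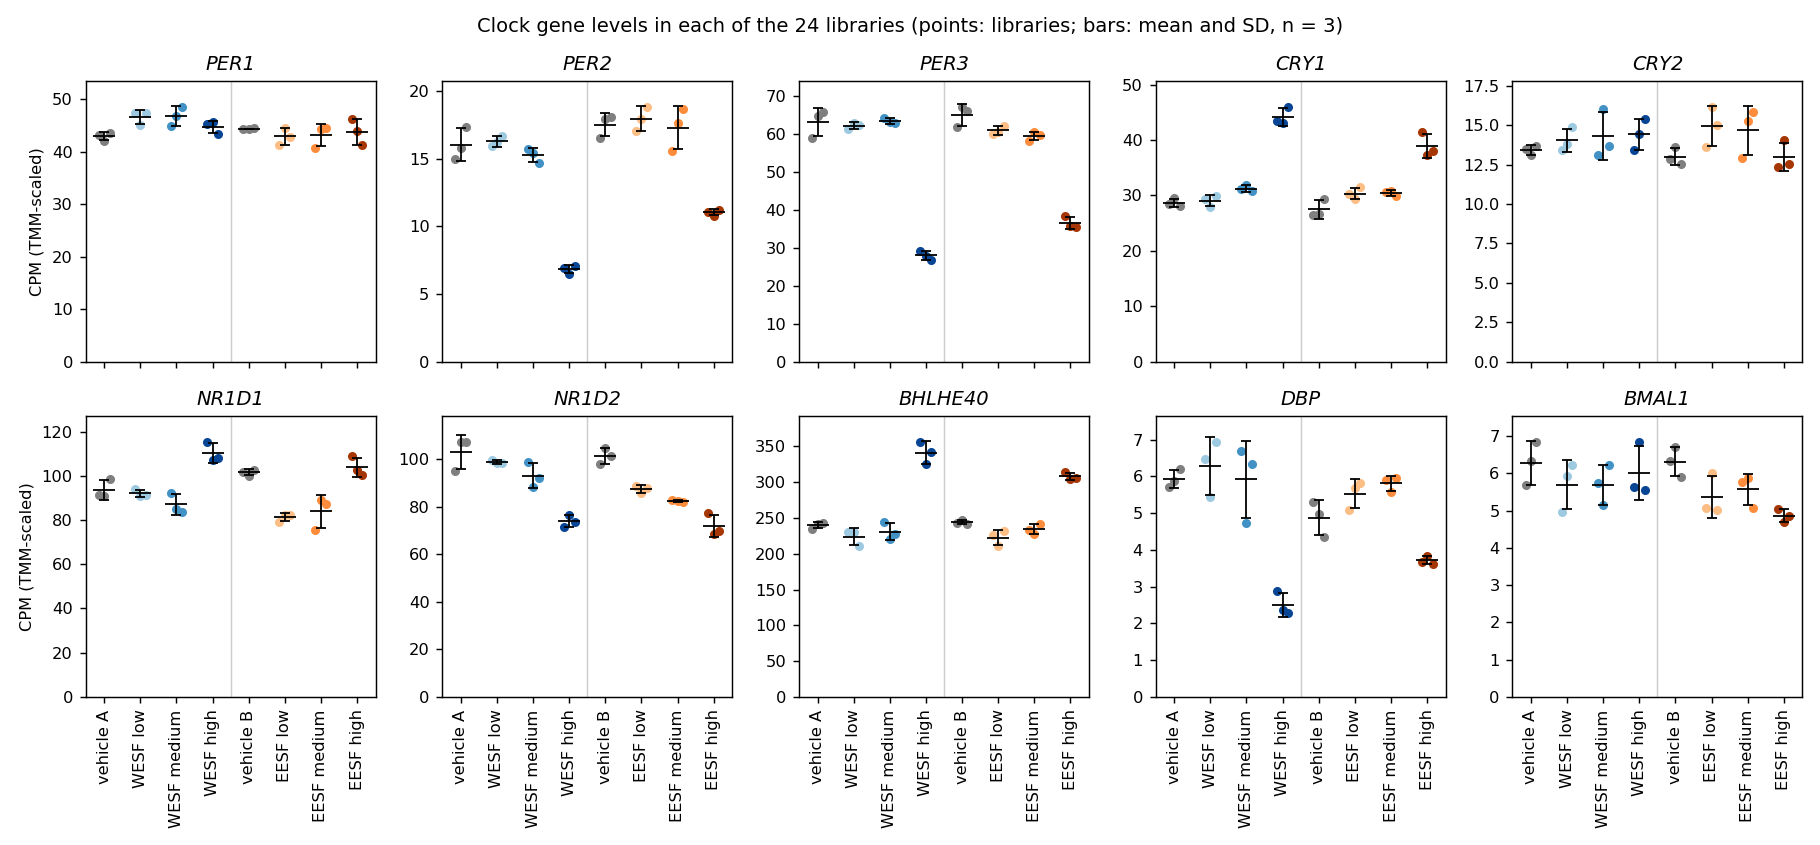
Level of each clock gene in every library, in CPM on TMM-scaled library sizes (linear axis from 0). Points are libraries and bars the mean and SD of 3; PER2, PER3 and DBP are lowest and CRY1 and BHLHE40 highest in the high-dose groups.

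PER2, a repressor of the feedback loop, had 15.0, 15.8 and 17.4 CPM in vehicle A and 6.95, 6.51 and 7.05 with high-dose WESF. The groups were far apart, and the log2 fold change was -1.23 (SE 0.0863, edgeR adjusted p = 1.69e-09), 0.427 times the vehicle level. In vehicle B it had 16.6, 17.9 and 18.1 CPM, and with high-dose EESF 11.1, 10.8 and 11.2, a log2 fold change of -0.67 (SE 0.0725, edgeR adjusted p = 8.65e-06). At the low and medium doses of both extracts its libraries lay between 14.7 and 18.9 CPM, in the range of the vehicles or close to it.

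PER3, the third member of the family, behaved much alike. Its 58.8, 64.6 and 65.8 CPM in vehicle A stood against 29.1, 27.9 and 26.9 with high-dose WESF. That is a log2 fold change of -1.17 (SE 0.0573, edgeR adjusted p = 1.81e-11). Vehicle B had 61.7, 67.1 and 65.9 CPM and high-dose EESF 38.4, 35.8 and 35.3, a log2 fold change of -0.83 (SE 0.0597, edgeR adjusted p = 3.25e-07). By absolute log2 fold change PER2 and PER3 stood at percentiles 94.7 and 94.0 of the genes tested with WESF and at 85.4 and 90.8 with EESF. At the lower EESF doses PER3 was between 58.2 and 62.1 CPM in all 6 libraries. The low dose overlapped vehicle B and the medium dose lay just below it, and the log2 fold changes of -0.10 and -0.13 missed the threshold (edgeR adjusted p = 0.193 and 0.0962). Without replicate 1 of vehicle B they passed it, at -0.14 and -0.17 (edgeR adjusted p = 0.0314 and 0.0191).

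PER1, whose transcript also answers to acute signals, did not pass the test at any dose. Its libraries lay between 40.8 and 48.6 CPM throughout. The log2 fold change was 0.06 (SE 0.0483) with high-dose WESF and -0.02 (SE 0.0588) with high-dose EESF, with edgeR adjusted p = 0.293 and 0.804.

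The cryptochromes, which bind the PER proteins and repress the CLOCK and BMAL1 dimer, divided in the same way. CRY1 rose from 28.4, 29.6 and 28.1 CPM in vehicle A to 43.4, 43.1 and 46.0 with high-dose WESF (log2 fold change 0.62, SE 0.0529, edgeR adjusted p = 1.77e-08). In vehicle B it had 26.5, 26.6 and 29.4 CPM against 41.4, 37.4 and 38.1 with high-dose EESF (0.50, SE 0.0675, edgeR adjusted p = 4.56e-05). In both batches all high-dose libraries were above every other library. CRY2 stayed between 12.4 and 16.2 CPM in all 24 libraries. Its log2 fold change was 0.10 (SE 0.0733, edgeR adjusted p = 0.234) with high-dose WESF, and with high-dose EESF the fold was 0.999 (SE of the log2 value 0.0804, edgeR adjusted p = 0.991).

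NR1D1 and NR1D2, the REV-ERB repressors, differed in their courses. NR1D2 had 94.9, 107.2 and 107.4 CPM in vehicle A and 71.6, 76.7 and 73.6 with high-dose WESF, a log2 fold change of -0.48 (SE 0.0542, edgeR adjusted p = 5.49e-07). With EESF it fell at every dose. Vehicle B had 98.0, 104.6 and 101.4 CPM, the low dose 88.9, 85.6 and 87.7, the medium dose 82.8, 82.6 and 81.8, and the high dose 77.3, 68.4 and 69.8. No library of any dose reached the lowest vehicle library. The log2 fold changes were -0.22 (SE 0.0441), -0.30 (SE 0.0455) and -0.50 (SE 0.0589), with edgeR adjusted p = 0.00977, 0.000929 and 1.75e-05. The call at the low dose was lost without replicate 2 of vehicle B or without replicate 2 or 3 of the low dose, with the highest edgeR adjusted p 0.0719 over those fits. At the medium dose of WESF NR1D2 had 98.7, 88.4 and 92.2 CPM, which overlapped vehicle A, and passed the test only without replicate 1 of vehicle A (edgeR adjusted p = 0.0105, against 0.147 with all libraries).

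NR1D1 rose with high-dose WESF, from 91.6, 90.8 and 98.7 CPM in vehicle A to 115.5, 107.0 and 108.2 (log2 fold change 0.24, SE 0.0491, edgeR adjusted p = 0.000411). With EESF its course was not in one direction. Vehicle B had 101.9, 100.1 and 102.7 CPM, the low dose 79.3, 82.3 and 82.3, the medium dose 75.6, 89.3 and 87.4, and the high dose 108.8, 102.7 and 100.5. The low and medium doses lay below every vehicle library, with log2 fold changes of -0.33 (SE 0.0412, edgeR adjusted p = 0.00124) and -0.27 (SE 0.0577, edgeR adjusted p = 0.0058). The high dose overlapped the vehicle (0.03, SE 0.0514, edgeR adjusted p = 0.593) and differed from the medium and low doses by 0.31 and 0.36 (edgeR adjusted p = 0.000916 and 3.41e-05). NR1D1 shares 473 exon bases (18.0% of its exon length) with THRA, a thyroid hormone receptor gene on the opposite strand. The kit marks strand, but whether the counting used it is not given in the sources used here, so reads of the shared part may belong to either gene. THRA fell at both high doses, by 0.39 with WESF and 0.31 with EESF on the log2 scale (edgeR adjusted p = 1.55e-06 and 0.00126).

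BHLHE40, an E-box repressor and the most abundant of the 10 genes, rose at both high doses. It had 235.1, 241.6 and 243.0 CPM in vehicle A and 356.7, 325.2 and 342.4 with high-dose WESF (log2 fold change 0.51, SE 0.0453, edgeR adjusted p = 3.18e-08). In batch B, 243.2, 247.3 and 242.1 CPM stood against 314.1, 303.8 and 306.4 (0.34, SE 0.0467, edgeR adjusted p = 6.38e-05). At the low dose of EESF it had 226.5, 210.3 and 231.3 CPM, all below vehicle B, and narrowly missed the threshold (-0.14, SE 0.0434, edgeR adjusted p = 0.0556). It passed there with DESeq2 (adjusted p = 0.0395), and in edgeR with low counts kept or with the replicate number as a block. Without replicate 1 of vehicle B it also passed (edgeR adjusted p = 0.0226).

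DBP, the D-box activator and a direct output of the loop, fell by about as much as PER2 with WESF and less with EESF. It had 5.71, 5.86 and 6.19 CPM in vehicle A and 2.88, 2.37 and 2.28 with the high dose, a log2 fold change of -1.23 (SE 0.133, edgeR adjusted p = 3.18e-07). In vehicle B it had 5.31, 4.96 and 4.35 CPM and with high-dose EESF 3.68, 3.83 and 3.62. The groups did not overlap, and the log2 fold change was -0.40 (SE 0.122, edgeR adjusted p = 0.0146). That call was lost with DESeq2 (adjusted p = 0.0581) and without replicate 1 of vehicle B (edgeR adjusted p = 0.0605). DBP shares 661 exon bases (10.2%) with SPHK2, a sphingosine kinase gene on the opposite strand, which fell by 0.20 on the log2 scale with high-dose WESF (edgeR adjusted p = 0.00752). SPHK2 had a median of 592.2 counts against 129.1 for DBP. As with NR1D1 and THRA, reads of the shared part may belong to either gene.

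BMAL1, the partner of CLOCK, passed the test at 1 dose. With high-dose EESF it had 5.05, 4.70 and 4.85 CPM against 6.34, 6.70 and 5.92 in vehicle B (log2 fold change -0.38, SE 0.105, edgeR adjusted p = 0.00822). With high-dose WESF it had 5.63, 6.85 and 5.56 CPM against 5.68, 6.33 and 6.86, and the groups overlapped (-0.07, SE 0.116, edgeR adjusted p = 0.613).

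**Figure D3:**
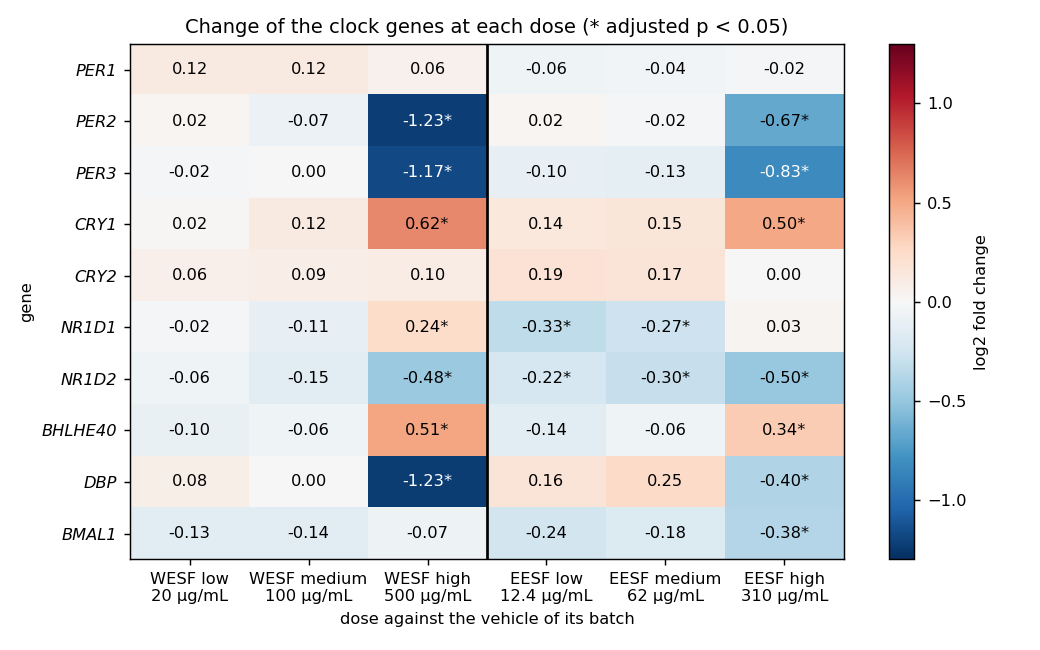
Log2 fold change of each clock gene (rows) at each dose against the vehicle of its batch (columns), blue lower and red higher than the vehicle. Asterisks mark an edgeR adjusted p under 0.05: 7 genes at each high dose, NR1D1 and NR1D2 at the lower EESF doses, and none at the lower WESF doses.

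Fewer clock genes passed at the lower doses. With WESF 0 of the 10 genes passed at the medium dose (4.10% of all genes) and 0 at the low dose (0% of all genes) by edgeR or by DESeq2. At an unadjusted p under 0.05 edgeR gave 3 and 1 of them, beside 2753 of 13112 and 470 of 13131 genes. The log2 fold changes at the medium dose ran from -0.15 for NR1D2 to 0.12 for CRY1 and PER1, and at the low dose from -0.13 for BMAL1 to 0.12 for PER1. With EESF 2 of the 10 passed at the medium dose (15.4% of all genes, 8.48% lower) and 2 at the low dose (9.35%, 6.24% lower). These were NR1D1 and NR1D2 at both doses, each lower. DESeq2 gave 2 and 3 of the 10, beside 1557 and 1013 genes in all. The high dose differed from the medium dose in 7 of the 10 genes with WESF (67.6% of all genes) and in 7 with EESF (50.9%). In both extracts these were PER2, PER3, CRY1, NR1D1, NR1D2, BHLHE40 and DBP. The same 7 genes differed between the high and the low dose (68.1% and 57.0% of all genes). The medium and low doses differed in 0 of the 10 in either batch by edgeR (0.936% and 0.137% of all genes), with 0 and 1 at an unadjusted p under 0.05 (1997 and 1102 of all genes), and DESeq2 was not run for them. For PER2, PER3 and DBP the order of levels within a batch was therefore the high dose lowest, with the remaining 3 groups not separated by a call.

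The extracts were compared by the difference between their responses, EESF minus WESF, in a fit of 12 libraries. The doses differ in µg/mL, so the comparison is of dose ranks and not of equal concentrations, and the extracts were in different batches. Each difference also contains that between the vehicles. In vehicle B against vehicle A it was -0.28 for DBP, 0.12 for PER2 and 0.12 for NR1D1 on the log2 scale. At the high dose 5 of the 10 genes passed (26.0% of all genes), and DBP was the only DEG among them (3.88% of all genes). DBP fell less with EESF, by a difference of 0.84 (SE 0.167, edgeR adjusted p = 0.00218). Against the low and medium doses in place of the vehicle, the log2 fold changes of high-dose DBP were -0.57 and -0.64 with EESF. With WESF they were -1.31 and -1.23. PER2 and PER3 also fell less with EESF, by 0.56 (SE 0.106, edgeR adjusted p = 0.00154) and 0.34 (SE 0.0821, edgeR adjusted p = 0.00665). BHLHE40 rose less, and NR1D1, which rose with WESF, did not pass with EESF. Their differences of -0.17 (SE 0.06) and -0.20 (SE 0.0685) were close to the threshold (edgeR adjusted p = 0.0441 and 0.0409) and were lost in most refits that left out 1 library. For CRY1 the difference was -0.12 (SE 0.0824, edgeR adjusted p = 0.317) and for NR1D2 -0.01 (SE 0.083, edgeR adjusted p = 0.927). At the medium dose 0 of the 10 passed by edgeR or DESeq2 (0.203% of all genes, 1 at an unadjusted p under 0.05 beside 1735 genes in all), with differences from -0.17 for NR1D1 to 0.25 for DBP. At the low dose edgeR gave 0 (0.00756% of all genes, 2 at an unadjusted p under 0.05 beside 1390 genes in all). DESeq2 gave 1, NR1D1, among 49 genes (-0.30, adjusted p = 0.00704, against -0.29 and 0.172 with edgeR). With the replicate number of the vehicles alone as a block, edgeR also called NR1D1 (-0.29, edgeR adjusted p = 0.00743, 223 genes in all). That setting was chosen after seeing the data, and the block over all libraries gave 0.

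Without any extract the libraries of the 2 vehicles did not overlap for 3 of the 10 genes, DBP, NR1D1 and PER1 (8.85% of all genes). In vehicle B against vehicle A 0 of the 10 genes passed by edgeR (0% of all genes, 2 at an unadjusted p under 0.05 beside 371 genes in all) and 0 by DESeq2 (3 genes in all). The log2 difference was 0.12 for NR1D1 (SE 0.045), 0.12 for PER2 (SE 0.0735) and -0.28 for DBP (SE 0.106), each with an edgeR adjusted p of 1.00 when rounded. The other 7 genes lay between -0.065 for CRY1 and 0.044 for PER1. The vehicles' replicate numbers paired, and with the number as a block 1 of the 10, NR1D1, passed (0.12, edgeR adjusted p = 0.00648), among 478 genes.

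Other clock factors moved at the high doses as well. Of the further factors of the loops 12 were tested, and 4 rose and 7 fell with high-dose WESF while 2 rose and 7 fell with high-dose EESF. Of all genes 34.3% rose and 34.6% fell with WESF, and 29.3% rose and 28.7% fell with EESF. The D-box activators fell together. HLF had 6.12, 7.20 and 7.56 CPM in vehicle A and 0.678, 1.18 and 1.23 with high-dose WESF (log2 fold change -2.76, SE 0.182, edgeR adjusted p = 7.58e-10), and 7.68, 7.32 and 7.87 in vehicle B against 2.19, 1.60 and 1.99 (-1.99, SE 0.135, edgeR adjusted p = 2.07e-07). TEF went from 47.8, 47.0 and 48.4 to 23.2, 22.8 and 21.1 CPM with WESF (-1.09, SE 0.0544, edgeR adjusted p = 2.24e-11) and fell by 0.85 with EESF. All members of this family were thus lower at both high doses, DBP with EESF by the call that was lost under DESeq2. The ROR activators did not move as one. RORA rose with WESF (1.12, SE 0.151, edgeR adjusted p = 4.50e-06) and did not pass with EESF (0.25, edgeR adjusted p = 0.151), with a difference between extracts of -0.87 (edgeR adjusted p = 0.00553). RORB, at under 1.2 CPM in all libraries, fell with both (-1.28 and -2.02). NPAS2, which can take the place of CLOCK, rose by 0.96 and 0.59, from 7.30, 7.20 and 7.24 to 14.5, 14.9 and 13.1 CPM with WESF. The repressor CIART fell with WESF alone by the test (-0.83, and -0.19 with EESF, edgeR adjusted p = 0.102), and the difference passed (0.64, edgeR adjusted p = 0.0013). BHLHE41, the relative of BHLHE40, fell with both extracts (-0.51 and -0.79) where BHLHE40 rose. TIMELESS, which also acts in DNA replication, fell by 0.59 with WESF and 0.35 with EESF.

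Of 10 genes whose products modify or degrade clock proteins 9 were tested. With high-dose WESF 6 rose and 2 fell, and with high-dose EESF 3 rose and 2 fell, beside 68.9% and 58.0% of all genes called in either direction. CSNK1E, a kinase of the PER proteins, was the DEG of this group in both. It had 146.0, 139.5 and 147.1 CPM in vehicle A and 293.9, 285.7 and 290.0 with WESF (log2 fold change 1.01, SE 0.0426, edgeR adjusted p = 3.56e-12), and 147.8, 144.4 and 144.4 in vehicle B against 245.0, 260.3 and 277.8 (0.84, SE 0.0563, edgeR adjusted p = 1.82e-07). Of 9 output genes 8 rose and 1 fell with WESF, and 5 rose and 1 fell with EESF, beside the same shares of all genes, of which 34.3% and 29.3% rose. PDK4, a pyruvate dehydrogenase kinase, had 0.958, 0.543 and 1.09 CPM in vehicle A and 5.76, 7.74 and 5.30 with WESF (2.85, SE 0.213, edgeR adjusted p = 3.56e-09), and rose by 1.68 (SE 0.238) with EESF. KLF11 rose by 0.71 and 0.29. PPP1R3C, a glycogen-targeting subunit of protein phosphatase 1, fell with both (-0.39 and -0.68). At the medium dose the 3 groups together had 1 call with WESF (4.10% of all genes) and 2 with EESF (15.4%), and at the low dose 0 (0%) and 1 (9.35%), all among the loop factors.

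**Figure D4:**
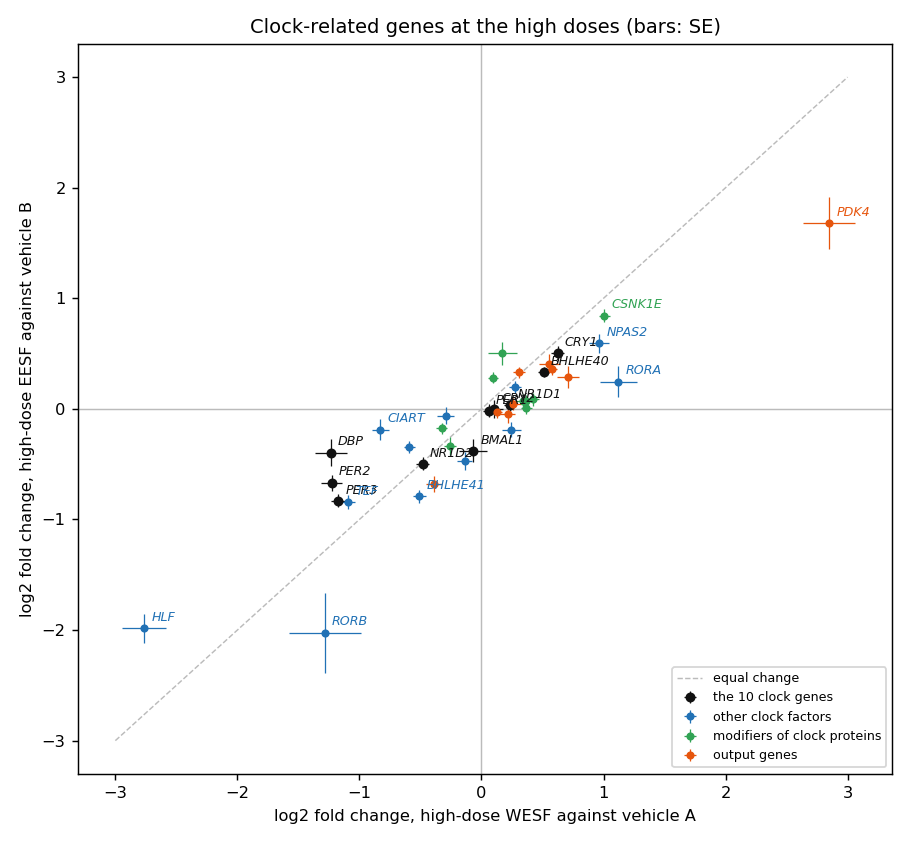
Log2 fold change at the high dose of WESF (horizontal) and of EESF (vertical) for the clock genes and 3 related groups, with SE bars and the line of equal change. DBP, PER2 and CIART lie above the line on the left, and PDK4 and RORA below it on the right.

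CLOCK itself was singled out after its values were seen. Its median over the 24 libraries was 128 CPM per kb of exon, rank 195 of 19586 protein-coding genes, while BMAL1 was at 0.829 CPM per kb. It is on chr4:55427903-55546909 (GRCh38, minus strand), and 11 of the 27 protein-coding genes that start within 2 Mb of its start were in the top 5% per kb. These were CHIC2, TMEM165, CLOCK, EXOC1, AASDH, PPAT, PAICS, SRP72, NOA1, POLR2B and IGFBP7, with IGFBP7 at 780.0 and PAICS at 469 CPM per kb. Their copy number was not measured. CLOCK overlaps TMEM165 on the opposite strand. CLOCK fell at the 3 doses of EESF, by 0.28, 0.28 and 0.47 on the log2 scale from low to high (edgeR adjusted p = 0.0137, 0.00984 and 0.000368). With high-dose WESF it missed the threshold (-0.14, SE 0.0611, edgeR adjusted p = 0.057). Its vehicle B libraries were widely spread, at 1487, 1721 and 1838 CPM, and its low-dose libraries had 1377, 1425 and 1380.

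**Figure D5:**
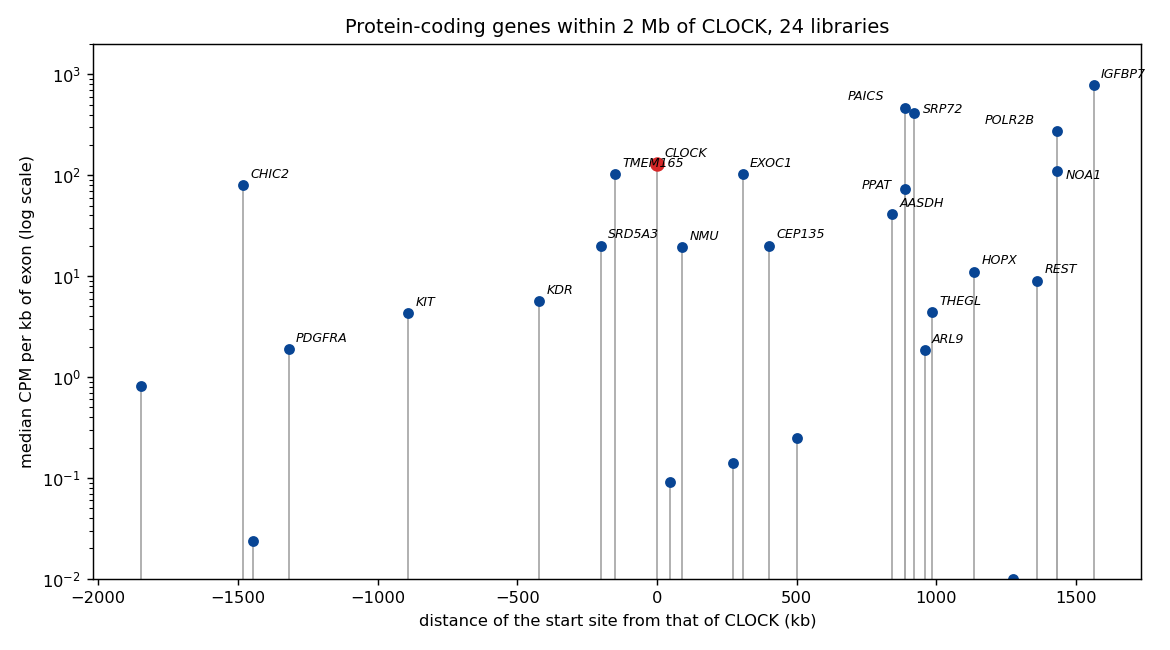
Median level per kb of exon (log axis, 24 libraries) of the 27 protein-coding genes that start within 2 Mb of CLOCK (red), by distance of the start sites in kb. Genes plotted on the lower edge are at or below 0.01 CPM per kb, and 11 genes, CLOCK among them, are in the top 5% of all protein-coding genes.

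Across the 24 libraries, after centring log2 levels on the vehicle of the batch, PER2 and PER3 moved together (Pearson r = 0.975), as did PER2 and DBP (0.925), and CRY1 ran against PER3 (-0.949). NR1D1 and NR1D2 were at -0.195, and PER1 and CRY2 at 0.067. These values describe the libraries and carry no test, since they share vehicles, doses and depth, and most of the spread is that between the high-dose groups and the rest. Among 12247 other genes, ZHX1 was most like PER3 (0.993), ARHGAP23 most like PER2 (0.990), TFPI most like CRY1 (0.979), ITGB3 most like BHLHE40 (0.971), AP5S1 most like DBP (0.966) and PIK3R1 most like NR1D2 (0.965). NR1D1 came closest to FARP2 (0.927), and the genes that passed at few or no doses had weaker partners, with CRY2 closest to GABBR1 (0.828), BMAL1 to RFC1 (0.825) and PER1 to ABCA2 (0.818).

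The letters of the D-box were also counted over all genes with a promoter window. Of 95 such genes tested with high-dose WESF, 19 were lower DEGs (20.0%), beside 12.7% of the 10638 genes with any window. With high-dose EESF 14 of 94 were (14.9%), beside 8.97% of 10595 genes. The shares of lower DEGs with WESF and EESF were 13.0% and 8.73% for the E-box, 11.5% and 8.42% for the E-prime box, and 8.17% and 5.71% for the cAMP response element (404 and 403 genes). Of the genes with a ROR element 133 of 1104 (12%) and 93 of 1098 (8.47%) were lower DEGs. Higher DEGs were 8.42% and 6.38% of the D-box genes with WESF and EESF, beside 10.5% and 7.69% of genes with any window. For the E-box these shares were 9.49% and 6.17%, and for the E-prime box 11.8% and 7.22%. For the ROR element they were 10.2% and 7.83%, and for the cAMP response element 11.6% and 6.7%. These shares are a description, and PER2 and PER3 are among the genes counted.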

How the data were processed

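The authors trimmed the reads (Trim Galore 0.6.6), aligned them to GRCh38 with STAR 2.7.9a and counted them with RSEM 1.3.3, and deposited RSEM's expected counts per gene, not normalized. Counts were rounded, and protein-coding genes (GENCODE release 44) kept by filterByExpr were tested with edgeR 4.0.16 in R 4.3.3 (TMM normalization, quasi-likelihood test, 2-sided, Benjamini-Hochberg adjustment over all genes tested). A comparison of 2 groups used only their 6 libraries, and the difference between extracts used 12. DESeq2 1.42.0, the tool of the study's methods, was an alternative, beside fits with its size factors, with low counts kept, with non-coding genes included, with the whole batch of 4 groups fitted together, with counts thinned to 18727769 per library, with the replicate number as a block, and with each library left out in turn. Replicates differed by more than sampling noise (chi-square per degree of freedom 2.05 to 14.1). Same-numbered libraries of the 2 vehicles deviated together (r = 0.312, 0.163 and 0.199), and in no other comparison was every r over 0.1. All 10 clock genes were described, and those not named in a comparison did not pass its edgeR test with all libraries. Of the related groups, genes that were DEGs at either high dose were named, and the most alike genes were those of highest r with a mean of at least 1 CPM, on log2(CPM + 0.5). The members and lists were chosen with earlier results of these data known.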

Additional observations from a re-analysis of the deposited data

Results flagged for a closer look

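In 5 of the 10 clock genes the response to the high dose differed between the extracts by the test of the difference itself (EESF minus WESF, edgeR, 12 libraries). Of all 13376 genes tested, 26.0% passed. The differences in log2 fold change were 0.84 for DBP, 0.56 for PER2 and 0.34 for PER3, whose falls were shallower with EESF, and -0.20 for NR1D1 and -0.17 for BHLHE40. The first 3 kept their call under all 17 alternative settings, whereas NR1D1 lost it under 11 and BHLHE40 under 12 of the 17. The extracts were tested in separate batches and at different concentrations, which cannot be told apart from the solvent of extraction. The differences also contain those between the vehicles of the batches. Groups of 3 libraries are too small for a search for single outlying libraries.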

How the results depend on the processing

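Of 23 calls of single clock genes (18 against the vehicles and 5 between the extracts), 19 kept their direction and call under all settings tried. The exceptions were DBP with high-dose EESF, NR1D2 with low-dose EESF, and the differences between extracts of NR1D1 and BHLHE40. The replicate block on numbers that the labels give, which paired in the vehicles only, left 3 calls in the difference at the high dose in place of 5 (2245 genes in all in place of 3481), gave 1 in vehicle B against vehicle A in place of 0 (478 genes in all in place of 0), added BHLHE40 to the 2 calls at the low dose of EESF, and added CRY2 to the 7 calls between the high and the low dose of EESF. In the other comparisons fitted with it, the same clock genes were called. Without a filter on low counts the difference at the high dose also had 3 calls (3313 genes in all). At the low dose the difference had 1 call, NR1D1, with DESeq2 (49 genes in all) and with a block of the vehicles alone (223). That block was a setting chosen after seeing the data. With each library left out in turn, the calls ranged from 0 to 1 for medium-dose WESF, from 1 to 4, 2 to 3 and 6 to 7 for low-, medium- and high-dose EESF, from 7 to 8 between the high and low dose of EESF and from 3 to 5 for the high-dose difference. The DEGs ranged from 1 to 2 for that difference, and from 4 to 5 with WESF and 2 to 3 with EESF between the high and the low dose. The causes were not tested.

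Signs changed only for genes that missed the threshold in the comparison concerned. At one depth the log2 fold change of DBP was 0.0103 with medium-dose WESF and that of CRY2 0.0178 with high-dose EESF. With each library left out, it ranged with medium-dose WESF from -0.0453 to 0.0371 for PER3, from -0.003 to 0.14 for CRY2 and from -0.0974 to 0.13 for DBP. With low-dose WESF it ranged from -0.0246 to 0.0794 for PER2, from -0.0689 to 0.0084 for PER3, from -0.0027 to 0.0476 for CRY1, from -0.0435 to 0.0119 for NR1D1 and from -5e-04 to 0.18 for DBP. With high-dose EESF it ranged from -0.0583 to 0.0176 for PER1, from -0.0667 to 0.0316 for CRY2 and from -1e-04 to 0.053 for NR1D1. With medium-dose EESF it ranged from -0.0588 to 0.0061 for PER1 and from -0.0777 to 0.0572 for PER2, and with low-dose EESF from -0.021 to 0.0641 for PER2. Between the vehicles it ranged from -0.0084 to 0.0755 for PER3, from -0.085 to 0.003 for NR1D2 and from -0.0598 to 0.0716 for BMAL1, and the difference between extracts of NR1D2 from -0.0722 to 0.0455. DBP and BMAL1 had the fewest counts of the 10 genes, and none of their calls against the vehicles changed at one depth.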
